A study of Mus musculus with 29 samples.

Results

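MHC class I presents peptides made inside a cell to CD8+ T cells. The immunoproteasome is a form of the proteasome whose catalytic subunits are induced by interferon and are abundant in leukocytes. The genes described here are 10: the light chain B2m, the heavy chains H2-K1 and H2-D1, the peptide transporter genes Tap1 and Tap2, the loading factor Tapbp, the immunosubunits Psmb8, Psmb9 and Psmb10, and Nlrc5, which encodes the transactivator of class I genes. They were chosen by name, and all 10 were among the 13982 genes of the table. All 10 also passed the filter on low values (a mean normalized value of at least 5).

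RNA came from (NZBxNZW)F1 mice, a lupus-prone cross written NZB/W. From proteinuric mice, which had lupus nephritis, there were 4 libraries of kidney, 3 of tertiary lymphoid structures (TLS, lymph node-like aggregates dissected by hand from the kidney) and 3 of lymph node. The mice were H6, H20, H117 and H115, aged 39, 36, 32 and 25 weeks. TLS were measured in H6, H20 and H115, and lymph node in H6, H20 and H117. A further 3 lymph node libraries came from antibody-positive mice, whose serum held anti-dsDNA antibodies (D10, D11 and L25, aged 28, 29 and 18 weeks), and 1 lymph node library came from a young mouse aged 4 weeks. TLS and kidney tissue were taken from the same kidney, and the TLS were cut out under a loupe. RNA was isolated with miRNeasy from the lymph nodes of antibody-positive mice and with TRIzol from the tissues of proteinuric mice. The antibody-positive mice were also all younger than the proteinuric mice whose lymph nodes were measured. Kit, age and disease state thus cannot be told apart between these lymph nodes.

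Libraries held between 343825 and 443379 reads. The normalized value of a gene is its read count after adding 1, over the library's size factor, and 3 reads correspond to values from 3.14 to 7.10. Ribosomal RNA took 55.6% of the reads in the kidney of H117, 31.9% in the lymph node of H6 and 21.3% in the TLS of H115, and at most 5.33% in the other libraries. The labelled tissues carried their markers: nephron markers summed to between 6504 and 18977 in kidney and to between 8.90 and 17.4 in proteinuric lymph node. In TLS, nephron markers summed to between 1772 and 7657, leukocyte markers to between 334 and 596, and urothelial markers to between 133 and 736, against 8.87 to 26.7 for the last in kidney.

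In the class I pathway, proteins are cut by the proteasome, the peptides are carried into the endoplasmic reticulum by the TAP1 and TAP2 transporter, and tapasin (Tapbp) holds an empty heavy chain with its light chain B2m at the transporter until a peptide binds. In cells exposed to interferon gamma, the subunits encoded by Psmb8, Psmb9 and Psmb10 take the places of the constitutive subunits encoded by Psmb5, Psmb6 and Psmb7. In the mouse, 7 of the 10 genes lie on chromosome 17 in the MHC. Psmb9 (17:34181987-34187764), Tap1 (17:34187553-34197225), Psmb8 (17:34197721-34201454) and Tap2 (17:34203527-34216321) lie side by side within 34.3 kb (GRCm38, GENCODE M21). H2-K1 (17:33996017-34000347), Tapbp (17:33915899-33929292) and H2-D1 (17:35262730-35267499) are on the same chromosome, B2m is on chromosome 2 (2:122147686-122153083), and Psmb10 (8:105935735-105938444) and Nlrc5 (8:94434356-94527272) are on chromosome 8.

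Promoters of 8 of the 10 genes were read from RefSeq (GRCm38.p6), each from 250 bases before to 50 bases after the start of transcription. The reference has another MHC haplotype than NZB/W mice, so letters may differ in the mice studied. The promoters are shown because the means of all 10 genes followed the same order across the tissues of proteinuric mice. Whether these genes are under shared control was not tested. The windows were searched on both strands for the interferon-stimulated response element (ISRE, GAAANNGAAA), the gamma-activated site (GAS, TTCNNNGAA), an NF-kappaB site (GGGNNTTCC), the CCAAT box, TGACG (part of the cAMP response element) and the GC box GGGCGG. Upstream stretches of B2m (chr2:122147527-122147685, + strand) and H2-K1 (chr17:34000348-34000477, − strand) follow, 5′ to 3′, with matches in capitals.
B2m: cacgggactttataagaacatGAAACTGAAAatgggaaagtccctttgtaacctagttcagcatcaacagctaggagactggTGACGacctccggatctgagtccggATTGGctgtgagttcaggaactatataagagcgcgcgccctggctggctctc
H2-K1: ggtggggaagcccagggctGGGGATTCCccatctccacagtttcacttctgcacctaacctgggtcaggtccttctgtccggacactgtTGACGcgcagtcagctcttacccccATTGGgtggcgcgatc
The B2m stretch held the ISRE, 139 bases before the start, then TGACG and the CCAAT box, which is written ATTGG on this strand. The H2-K1 stretch held the NF-kappaB letters 111 bases before the start, and TGACG and CCAAT in the same order. In H2-D1 the same NF-kappaB letters stood 171 bases before the start. The windows of H2-D1, Psmb8, Psmb9 and Tap1 reach into annotated transcripts, so 30 bases around 1 match of each are shown.
H2-D1: gcccagggctGGGGATTCCccatctcctca
Psmb8: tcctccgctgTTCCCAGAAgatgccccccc
Psmb9: tgcgcgatgatgGGGCGGggcctcagtctg
Tap1: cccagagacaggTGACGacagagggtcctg
These lie at chr17:35262913-35262942 (+ strand, NF-kappaB), chr17:34198088-34198117 (+ strand, GAS), chr17:34187368-34187397 (− strand, GC box) and chr17:34187458-34187487 (+ strand, TGACG). Psmb9 and Tap1 are transcribed away from each other from RefSeq starts with 225 bases between them. Their windows thus share 275 bases and the same CCAAT, GC box and TGACG matches.

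Among the 8 windows, the ISRE letters were found in 1 (B2m), the GAS letters in 1 (Psmb8), the NF-kappaB letters in 2 (H2-K1 and H2-D1), TGACG in 5, CCAAT in 6 and the GC box in 3. Over all 27025 promoters of the same length, these letters were found in 3.49% (ISRE), 8.47% (GAS), 5.72% (NF-kappaB), 21.0% (TGACG), 37.9% (CCAAT) and 35.9% (GC box). No match overlapped a match of another motif. A match describes letters in the window and is not a measured binding site. Only these exact patterns were searched, so a window without a match may still hold a variant of the site.

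In proteinuric mice, all 10 genes had their lowest mean in kidney, a higher mean in TLS and the highest in lymph node. Between kidney and TLS, 6 of the 10 rose (B2m, H2-K1, Tap1, Psmb8, Psmb9 and Nlrc5) at a Benjamini-Hochberg adjusted p under 0.05 (limma, 7382 genes). Of all genes tested, 8.62% rose in TLS. The other 4 genes also had higher means in TLS, and 8 of the 10 had all TLS libraries above all kidney libraries, as 13.4% of all genes tested did. The median log2 fold change over the 10 genes was 1.78, against -0.01 over all genes tested. In these bulk samples, more cells of a type and more RNA per cell cannot be told apart.

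**Figure D1:**
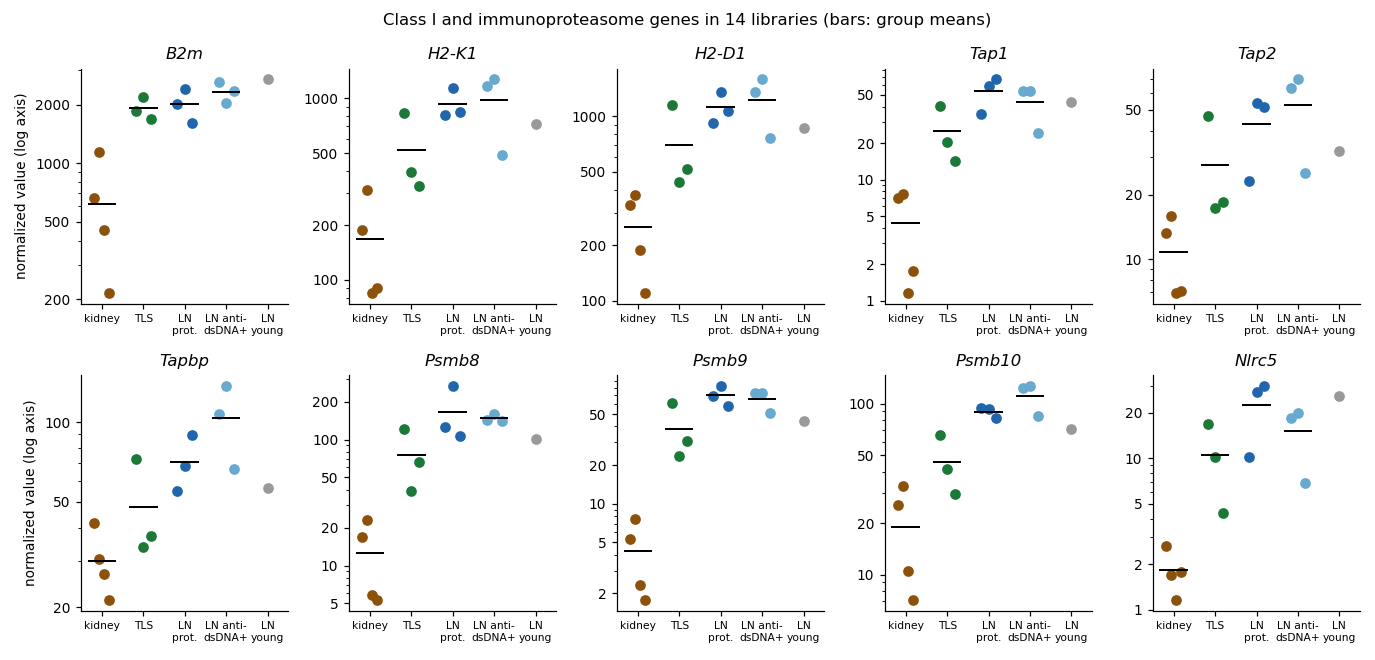
Normalized value (vertical log axis) of the 10 genes in each library of kidney, TLS and lymph node (LN) of proteinuric mice (prot.), and of lymph node of antibody-positive mice and of a young mouse; points are libraries and bars are group means. Kidney libraries lie below all lymph node libraries of proteinuric mice in every panel, and the TLS means lie between.

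Nlrc5, the regulator, was near the limit of detection in kidney. It had 2 reads in the kidney of H6, 1 in H20 and 0 in the other kidneys, against 19, 12 and 3 reads in the TLS of H6, H20 and H115. In lymph node it had 6, 28 and 36 reads in H6, H20 and H117. The TLS and kidney libraries did not overlap, although the lowest TLS value (4.36) was that of 3 reads. Pooled over libraries and scaled by the size factors, the TLS held 12.6 times the kidney level (95% exact interval 3.96 to 64.1), and lymph node 29.3 times (9.62 to 145); these intervals cover counting error only. In the fit across genes, the log2 fold change of Nlrc5 was 1.89 in TLS (SE 0.46, adjusted p 0.0153, limma). Its size depends on the value added to reads this few.

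The immunosubunits Psmb9 and Psmb8 had the largest log2 fold changes of the 10 genes between kidney and TLS. Psmb9, which replaces Psmb6, had values of 5.30, 7.59, 2.32 and 1.77 in the kidneys of H6, H20, H115 and H117. These came from 5, 8, 1 and 0 reads, so the value in H117 is the added read alone. In TLS the Psmb9 values were 61.1 (H6), 23.6 (H20) and 30.5 (H115). In lymph node they were 69.6, 82.4 and 57.5 (H6, H20 and H117). The TLS libraries were thus all above the kidney libraries, and the TLS of H6 lay within the range of the lymph nodes. The mean of Psmb9 was 4.25 ± 2.72 over the kidneys (SD, n = 4) and 38.4 ± 19.9 over the TLS (SD, n = 3), a ratio of 9.04. The kidney mean rests on 14 reads, so this ratio depends on the added read. The log2 fold change was 2.94 (SE 0.44, adjusted p 0.000915, limma).

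Psmb8, which replaces Psmb5, had values of 16.8, 22.8, 5.79 and 5.32 in the same 4 kidneys, from 18, 26, 4 and 2 reads. In TLS the values were 120 (H6), 39.3 (H20) and 66.5 (H115), and in lymph node 126, 265 and 108. Again no kidney library reached a TLS library. The log2 fold change between kidney and TLS was 2.57 (SE 0.55, adjusted p 0.00808, limma). Psmb10, which replaces Psmb7, differed less. It had values of 25.6, 32.9, 10.4 and 7.10 in the kidneys of H6, H20, H115 and H117, and of 65.3, 41.7 and 29.4 in the TLS of H6, H20 and H115. The TLS of H115 thus lay below the kidney of H20, and its log2 fold change of 1.38 (SE 0.48) had an adjusted p of 0.0777 (limma). In the lymph nodes of proteinuric mice Psmb10 lay between 82.5 and 94.2, above all TLS libraries.

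The constitutive subunits did not pass the test. Between kidney and TLS, the log2 fold change was -0.33 (95% interval -1.01 to 0.35) for Psmb5, -0.18 (-0.90 to 0.54) for Psmb6 and 0.24 (-0.70 to 1.19) for Psmb7. Between kidney and lymph node it was -0.21 (-0.89 to 0.46), -0.02 (-0.74 to 0.71) and -0.19 (-1.14 to 0.75). None of the 3 was called in any comparison, and the groups overlapped in each. The upper bounds for Psmb5 and Psmb6 in TLS lay below the lower bounds of Psmb8 and Psmb9 (1.37 and 1.99). The interval of Psmb7 overlapped that of Psmb10 (0.33 to 2.42).

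Levels of different genes were compared per kb of the principal transcript. Summed per kb, the 3 immunosubunits had values of 33.8, 44.7, 13.2 and 10.0 in the kidneys of H6, H20, H115 and H117. In TLS the sums were 169 (H6), 73.4 (H20) and 85.9 (H115). The sum of the 3 constitutive subunits stayed between 143 and 216 in kidney and between 141 and 244 in TLS. As a share of all 6 subunits, the immunosubunits made up 11.5% ± 6.42 in kidney (SD, n = 4), 36.3% ± 11.5 in TLS (SD, n = 3), 56.0% ± 5.36 in lymph node of proteinuric mice (SD, n = 3) and 53.8% ± 8.36 in lymph node of antibody-positive mice (SD, n = 3). The young lymph node had 55.8%, and that of L25, with 44.1%, was the lowest of the 7 lymph nodes. Kidney shares ran from 5.78% to 19.0% and TLS shares from 26.0% to 48.7%, so the groups did not overlap.

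Each immunosubunit was also set against the subunit it replaces, per kb. Psmb8 stood at 0.184, 0.281, 0.0657 and 0.0753 times Psmb5 in the kidneys of H6, H20, H115 and H117, and at 2.31, 0.673 and 0.732 times Psmb5 in the TLS of H6, H20 and H115. Psmb9 stood at 0.0219 to 0.0843 times Psmb6 in kidney and at 0.328 to 0.545 times Psmb6 in TLS. The lowest kidney ratio, that of H117, rests on 0 reads of Psmb9. For both pairs every TLS ratio was above every kidney ratio, while for Psmb10 over Psmb7 the ratio in the TLS of H115 (0.161) lay within the kidney range of 0.0926 to 0.338. In the lymph nodes of proteinuric mice, Psmb8 exceeded Psmb5 in all 3 libraries (1.44 to 4.83), and Psmb9 stayed below Psmb6 (0.616 to 0.931). These ratios are descriptions and were not tested.

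**Figure D2:**
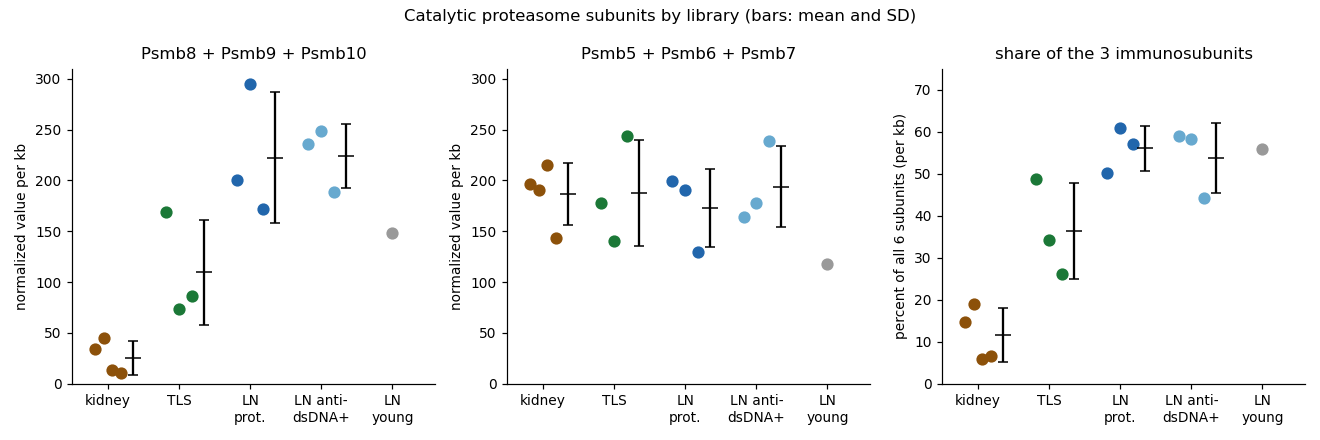
Sum of the normalized values per kb of the 3 immunosubunits (left) and of their constitutive counterparts (middle), and the share of the immunosubunits in all 6 (right, percent), by library; points are libraries, and the offset bars show group mean and SD. The immunosubunits rise from 10.0 to 44.7 in kidney to 172 to 295 in lymph node of proteinuric mice, whereas the constitutive sums overlap in all groups of more than 1 library.

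Of the transporter genes, Tap1 rose and Tap2 did not pass the test. Tap1 had values of 7.07 and 7.59 in the kidneys of H6 and H20, and no read in the kidneys of H115 and H117. Its TLS values were 40.7 (H6), 20.4 (H20) and 14.2 (H115), and its lymph node values 34.8, 58.7 and 67.2 (H6, H20 and H117). All TLS libraries were thus above the kidneys, and the TLS of H6 was above the lymph node of the same mouse. In the GENCODE M21 annotation, Tap1 and Psmb9 overlap at their starts on opposite strands, and reads in the overlap cannot be assigned without strand. The RefSeq starts used for the promoters instead leave 225 bases between these genes. The log2 fold change between kidney and TLS was 2.40 (SE 0.53, adjusted p 0.00967, limma). Tap2 had values of 13.3, 16.0, 6.95 and 7.10 in the kidneys of H6, H20, H115 and H117 and of 46.6, 17.3 and 18.5 in the TLS of H6, H20 and H115. The TLS were higher, those of H20 and H115 by little over the kidney of H20, and the log2 fold change of 1.20 (SE 0.45) had an adjusted p of 0.0988 (limma). The loading factor Tapbp differed least, with 21.3 to 41.6 in kidney, 33.8 to 72.9 in TLS and a log2 fold change of 0.61 (SE 0.37, adjusted p 0.301, limma).

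Per kb of transcript, the light chain B2m had the highest value of the 10 genes in each library. Its normalized values, given here and below without division by length, were 660, 1147, 451 and 215 in the kidneys of H6, H20, H115 and H117. In TLS the values were 1852 (H6), 2194 (H20) and 1680 (H115), and in lymph node 2024, 2410 and 1607. TLS and lymph node values were interleaved, and all lay above the kidneys. The TLS mean of B2m was 94.8% of the lymph node mean, the highest of the 10 genes, and the log2 fold change between kidney and TLS was 1.86 (SE 0.53, adjusted p 0.0321, limma).

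The heavy chain H2-K1 had values of 187, 313, 84.6 and 90.5 in the 4 kidneys in the same order. In TLS the values were 829 (H6), 393 (H20) and 330 (H115), and in lymph node 813, 1145 and 838. The TLS of H6 stood at the level of the lymph nodes, and the other TLS libraries were nearer to the kidney of H20. H2-K1 rose by 1.70 on the log2 scale (SE 0.52, adjusted p 0.0443, limma). H2-D1 lay between 110 and 373 in kidney and between 439 and 1152 in TLS, with a log2 fold change of 1.51 (SE 0.51, adjusted p 0.0674, limma). In lymph node it lay between 920.2 and 1359. The reads of NZB/W mice were mapped to a reference of another MHC haplotype, and class I genes have near-identical copies. Of the 50-base windows of the longest coding transcript, 8.79% in H2-K1 and 14.3% in H2-D1 also occurred in other class I transcripts, against 0% in B2m, Psmb8, Psmb9, Psmb10 and Nlrc5, so the heavy chain values are uncertain where reads were shared.

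The number of genes called between kidney and TLS depended on single libraries. The TLS of H6 was the highest of its group for 9 of the 10 genes, and without it only Psmb9 was called (adjusted p at most 0.0111 over all alternatives). Without the TLS of H20, Psmb8, Psmb9 and Tap1 were called, and without the kidney of H117 or of H115 4 genes were. Without the 3 libraries rich in ribosomal RNA, 3 were called (Psmb9, Tap1 and Nlrc5). The direction stayed the same for all 10 genes under each of these changes.

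Leukocyte markers moved with the differences between kidney and TLS. The summed value of 5 leukocyte markers, all of which rose in TLS, was 70.7, 83.5, 41.7 and 42.6 in the kidneys of H6, H20, H115 and H117, and 596, 334 and 436 in the TLS of H6, H20 and H115. Within kidney, H20 was highest for these markers, and it was also highest for 8 of the 10 genes, with H6 highest for the other two. Within TLS, H6 was highest both for the markers and for 9 of the 10 genes. The lymph nodes of proteinuric mice differed in this. There H6 had the highest marker sum (933) and was lowest for 6 of the 10 genes. H20 had the lowest sum (877) and was highest for 6. All 6 B-cell markers, 6 of 6 T-cell markers, 4 of 4 plasma cell markers and 3 of 6 macrophage markers rose in TLS, and in kidney between 2 and 6 of the B-cell markers had no read. The kidney mean of the summed leukocyte markers was 6.56% of the lymph node mean, and the TLS mean was 50.1%. For the 10 genes, the kidney mean was between 6.08% (Psmb9) and 42.2% (Tapbp) of the lymph node mean, and the TLS mean between 45.3% (Psmb8) and 94.8% (B2m). Kidney shares of genes with few reads there, such as Psmb9 with 14 in all, are raised by the added read. The part of leukocyte number in these values was not tested.

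**Figure D3:**
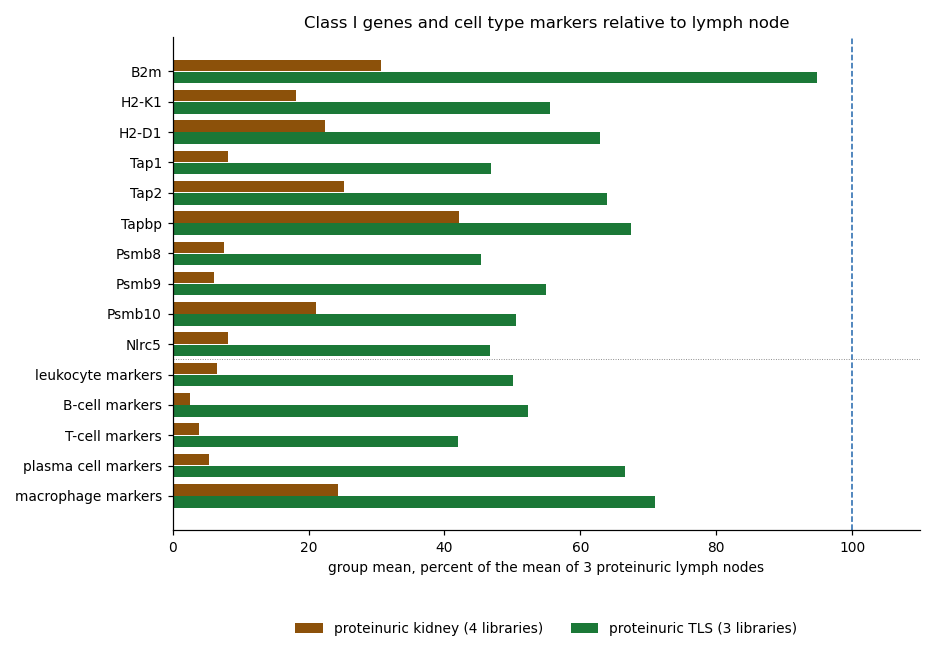
Mean normalized value of the 10 genes and summed value of the cell type markers in kidney (brown) and TLS (green) of proteinuric mice, as a percent (horizontal axis) of the mean of the 3 lymph nodes of proteinuric mice (dashed line). In kidney, Psmb9, Psmb8, Nlrc5 and Tap1 stand between 6.08% and 8.21%, beside 6.56% for the leukocyte markers, while B2m, Tap2 and Tapbp stand at 25.2% or more. Nlrc5, Psmb9 and Tap1 had only 3, 14 and 15 reads over the kidneys, so the added read raises their kidney shares.

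Between kidney and lymph node of proteinuric mice, 10 of the 10 genes rose in lymph node, against 20.8% of all genes tested. In all 10, every lymph node library was above every kidney library, as in 23.3% of all genes tested. The largest log2 fold changes were those of Psmb9 (3.89, SE 0.44, adjusted p 1.86e-05), Psmb8 (3.73, SE 0.55, adjusted p 0.000151) and Tap1 (3.54, SE 0.53, adjusted p 0.000178), and the smallest that of Tapbp (1.23, SE 0.37, adjusted p 0.0162, all limma). The median over the 10 genes was 2.53, against 0.05 over all genes tested. Between lay Nlrc5 (2.95), H2-K1 (2.65), Psmb10 (2.42), H2-D1 (2.29), B2m (1.93) and Tap2 (1.88). The interval of Tapbp (0.43 to 2.03) ended below that of Psmb9 (2.93 to 4.85), whereas neighbours in the order had overlapping intervals. Tapbp and Psmb9 were picked as the ends of this order, and differences between genes were not tested. Without the lymph node of H117 the adjusted p of Tapbp was 0.0701, and without the libraries rich in ribosomal RNA that of B2m was 0.0697 (limma).

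Between TLS and lymph node, none of the 10 genes passed the test, against 1.69% of all genes tested called higher in lymph node. By edgeR and DESeq2 the number passing was also 0. None of the 10 had an unadjusted p under 0.05 (limma), against 1671 of all 7382 genes tested, counted in either direction. All 10 had higher means in lymph node, with log2 fold changes from 0.07 (B2m) to 1.16 (Psmb8), a median of 0.95 against 0.04 over all genes tested, and adjusted p values from 0.221 to 0.965 (limma). The direction of B2m turned under some alternatives. Only Psmb10 had all lymph node libraries above the TLS libraries, as 9.48% of all genes tested did. The intervals were wide: a log2 fold change of 1 lay within the 95% interval of each of the 10 genes, as for Psmb9 (-0.08 to 1.97) and Psmb10 (-0.08 to 2.16). The leukocyte markers also had higher sums in lymph node (877 to 933) than in TLS, 0 of 5 passed the test, and their median log2 fold change was 1.22. Of the 6 T-cell markers, 3 rose in lymph node over TLS, Cd8a by 2.12, Cd3e by 1.76 and Cd3d by 1.38 on the log2 scale (adjusted p 0.00219, 0.0166 and 0.0280, limma), while 0 of 6 B-cell, 0 of 4 plasma cell and 0 of 6 macrophage markers did. The summed T-cell markers lay between 228 and 252 in lymph node and between 84.0 and 135 in TLS. Of the 10 nephron markers tested, 9 were called lower in lymph node than in TLS, as were 5 of 5 urothelial markers. The median log2 fold changes of these lists were -5.01 and -4.99. The part of any of these markers in the values of the 10 genes was not tested.

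**Figure D4:**
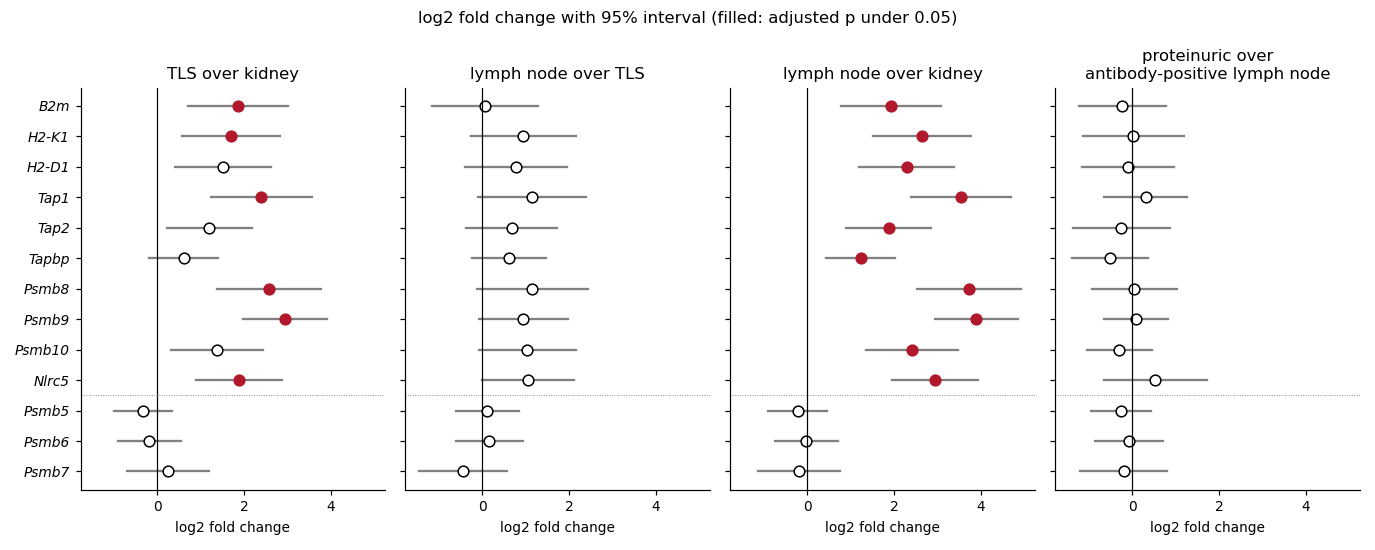
log2 fold change (horizontal axis) with its 95% interval for the 10 genes and, under the dotted line, their constitutive counterparts Psmb5, Psmb6 and Psmb7, in each of the 4 comparisons; filled points passed the test at an adjusted p under 0.05 (limma). In TLS over kidney 6 of the 10 are filled, in lymph node over kidney all 10, and in the others none.

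Lymph nodes of antibody-positive mice were compared with those of proteinuric mice, that is, across disease stages, with which age and RNA kit also differed. Psmb9 had values of 72.3, 73.3 and 50.5 in D10, D11 and L25, against 57.5 to 82.4 in proteinuric mice. Psmb8 had values of 144, 159 and 141, against 108 to 265. B2m had values of 2603, 2042 and 2353, against 1607 to 2410. In each case the groups overlapped. Nlrc5, at 18.5, 20.0 and 6.88 in D10, D11 and L25 (10.1 to 29.9 in proteinuric mice), and Tapbp, at 108, 137 and 66.5 (55.1 to 89.8), overlapped as well. None of the 10 genes passed the test (limma, adjusted p 0.998 for each), and none had an unadjusted p under 0.05. Of the 6810 genes tested in this fit, 0% were called, although 215 had an unadjusted p under 0.05, and edgeR and DESeq2 also called none of the 10. The log2 fold changes, proteinuric over antibody-positive, ran from -0.51 (Tapbp) to 0.53 (Nlrc5), 5 of the 10 were positive, and all 10 groups overlapped. The intervals ran from -1.39 to 1.72 over the 10 genes, and a change of 1 on the log2 scale in at least 1 direction lay within the interval of each gene but Psmb9.

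Within the antibody-positive group, the lymph node of L25 was the lowest for 9 of the 10 genes and that of D11 the highest for 9. H2-K1 was 1173 in D10, 1274 in D11 and 488 in L25, and Tap2 was 63.0, 69.4 and 25.2. The summed T-cell markers were 468, 364 and 336 in D10, D11 and L25, above the range of 228 to 252 in proteinuric mice, and 0 of 6 passed the test. L25, the youngest of these mice, also had the lowest sum of leukocyte markers (730 against 1116 and 1083) and 22.99% of its reads from mitochondrial genes, against 5.79% and 5.35% in D10 and D11. Without it, 2 of the 10 log2 fold changes were positive and their median was -0.31. The part of these markers and library properties was not tested.

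The young lymph node was a single library and was compared with the other 6 lymph nodes by its values only. For 6 of the 10 genes it lay within their range. Its B2m value was above them (2698 against 1607 to 2603), and all 3 immunosubunits were below them: Psmb8 at 100.2 against 108 to 265, Psmb9 at 43.8 against 50.5 to 82.4, and Psmb10 at 70.7 against 82.5 to 127. The constitutive Psmb5 and Psmb6 were below the other lymph nodes as well, at 28.6 and 33.1.

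The rest of the pathway was described from lists of genes. Of 13 class I heavy chains listed besides H2-K1 and H2-D1, 11 were tested, and of these 7 rose in TLS and 11 rose in lymph node over kidney. Over all genes tested, the shares were 8.62% and 20.8%. H2-M3, which presents formylated peptides, had means of 4.37 ± 4.09 over the kidneys (SD, n = 4) and 25.1 ± 13.9 over the TLS (SD, n = 3); its log2 fold change was 2.45 (adjusted p 0.00771, limma). H2-Q7 and H2-Q10 rose by 2.36 and 1.99 (adjusted p 0.00858 and 0.00356, limma), with the caution on copies that holds for H2-K1. Without the TLS of H6, 1 of the 11 was called, and 3 were called without the kidney of H115 or without the libraries rich in ribosomal RNA.

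Of 11 other ring subunits of the proteasome core and the assembly factor Pomp, 0 of 12 passed the test in any comparison, with a median log2 fold change of 0.24 between kidney and TLS. The gene of this list with the highest mean value, Psmb1, was at 96.0 ± 14.7 over the kidneys (SD, n = 4) and at 101 ± 3.66 over the TLS (SD, n = 3); its log2 fold change was 0.08 (adjusted p 0.914, limma). Of the 3 genes of the activator PA28, which opens the proteasome gate and whose Psme1 and Psme2 subunits are induced by interferon gamma, 0 passed in TLS and 2 rose in lymph node over kidney. Psme1 had a log2 fold change of 1.16 in TLS over kidney (adjusted p 0.0851) and of 1.85 in lymph node over kidney (adjusted p 0.00298, limma). Of 6 genes for peptide loading and trimming, 0 passed in TLS and 1 in lymph node over kidney. Over all genes tested, 8.62% rose in TLS and 20.8% in lymph node over kidney, so 1 of 6 is not above that share. The chaperone Calr was at 256 ± 118 over the kidneys (SD, n = 4) and at 280.04 ± 76.8 over the TLS (SD, n = 3).

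Of 14 listed regulators of class I transcription, 12 were tested, and of these 2 rose in TLS and 8 in lymph node over kidney. Over all genes tested, the shares were 8.62% and 20.8%, so the count in TLS is near that share. Irf1, an interferon-induced activator of several of these genes, rose by 1.82 on the log2 scale in TLS (adjusted p 0.0213, limma), from 8.42 ± 6.08 over the kidneys (SD, n = 4) to 28.2 ± 9.88 over the TLS (SD, n = 3). Without the TLS of H6 or H20, without the kidney of H117 or H115, or without the libraries rich in ribosomal RNA, 1 of the regulators was called in TLS. Between kidney and lymph node, 5 were called without the kidney of H115, 4 without the lymph node of H20 and 5 without that of H117. Of 4 listed class I-like proteins, 2 were tested and 0 passed in TLS. Fcgrt, which encodes the neonatal Fc receptor and pairs with B2m, had means of 83.9 ± 22.01 over the kidneys (SD, n = 4) and 40.8 ± 12.4 over the TLS (SD, n = 3); its log2 fold change was -1.03 (adjusted p 0.0678, limma). In lymph node it fell by 1.03 on the log2 scale against kidney (adjusted p 0.0300, limma). That call was lost, with 0 of the 2 genes passing, when the mouse was a replicate block, without the libraries rich in ribosomal RNA, and without the kidney of H6 or H115 or the lymph node of H6 or H117.

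Across the 14 libraries, the 10 genes had pairwise Pearson correlations of log2 values from 0.70 (B2m with Tapbp) to 0.99 (Psmb8 with Psmb9), with a median of 0.92 over 45 pairs. The genes outside the group most like its mean profile were H2-Q4 (0.994), Selplg (0.993), H2-Q7 (0.992), Hcls1 (0.990) and Fermt3 (0.990). Selplg encodes the selectin ligand of leukocytes, and Hcls1 and Fermt3 are expressed in blood cells. The caution on copies given for H2-K1 holds for H2-Q7 as well. For Ptprc, which encodes the leukocyte antigen CD45, the correlation was 0.952 (rank 170 of all genes, members included). Within the group, Nlrc5 (0.923), B2m (0.908) and Tapbp (0.899, rank 611) lay below Ptprc. The other members lay above it, from 0.957 (Tap2) to 0.989 (Tap1). A high likeness thus did not set the group apart from leukocyte genes. For Psmb5, Psmb6 and Psmb7 the correlation was -0.26, -0.02 and -0.15. These are descriptions over libraries that share tissues and mice.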

How the data were processed

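RNA was measured in 14 libraries. Poly(A) RNA was read by the authors on an Ion Torrent PGM instrument. Reads were mapped to GRCm38 and counted with CLC Genomics Workbench 8 under its defaults. The deposited signal is whole reads plus 1, divided by a DESeq size factor, which the values show (100% whole at a tolerance of 1e-06); the added read and the handling of strand and multiply mapped reads are not given in the sources used here. In GENCODE M21, Psmb9 and Tap1 overlap on opposite strands (17:34187553-34187764), as do Psmb8 and Tap2 with Gm20496, and Tapbp overlaps Zbtb22. The submitters' processing notes also list BWA 0.6.2-r126, HTSeq, edgeR and limma. The 15 whole-kidney samples of the series were not analysed here.

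limma 3.58.1 (trend and robust moderation, R 4.3.3) was fitted to log2(value + 1) of 10 libraries of 3 tissues (7382 genes whose values averaged 5 or more) and of 6 lymph node libraries (6810 genes). A gene was called at a Benjamini-Hochberg adjusted p under 0.05. Fold changes on this scale understate the change of low genes. Tests were tried on simulated data. Genes and lists were chosen with earlier results of these data known. Named were the 10 genes, Psmb5, Psmb6, Psmb7, from each other list up to 3 genes called in TLS (or the most abundant), and the 5 genes of most like profile; 1 gene that this rule names is not reported here. Lists were matched by symbol. Alternatives were edgeR 4.0.16 and DESeq2 1.42.0 on recovered reads, other filters and pseudocounts, left-out libraries and a replicate block. That same-numbered libraries are from 1 mouse is taken from the labels. Deviations from the group means correlated at 0.351 to 0.454 between kidney and TLS of the same mouse (different mice -0.498 to 0.361, 9 pairs), at -0.335 to 0.202 between kidney and lymph node (different mice -0.353 to 0.512) and at -0.266 and 0.0254 between TLS and lymph node (different mice -0.211 to 0.293), so same-mouse tissues did not deviate together throughout. The labels were followed where they differ from the study's text, which gives fewer proteinuric kidneys and age ranges that do not include H115 and L25.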

Additional observations from a re-analysis of the deposited data

Results flagged for a closer look

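The lymph node of the young mouse, which was compared by its values only, had a B2m value of 2698, above the range of 1607 to 2603 in the other 6 lymph nodes. It is 1 library, and 10.6% of its reads came from mitochondrial genes, against 2.55% to 22.99% in the other lymph nodes.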

How the results depend on the processing

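Between kidney and TLS, 3 of the 10 genes were called in a fit of only those tissues, 3 without the libraries rich in ribosomal RNA, and 1 to 8 when each library was left out. edgeR's quasi-likelihood test called 5 with either scaling, its likelihood ratio test 9 and DESeq2 7. With the mouse as a replicate block, 6 were called, the same genes as without it, and the block changed no call of the 10 genes in the other comparisons. Between TLS and lymph node 0 were called under all alternatives, as between the lymph node groups; between kidney and lymph node 9 or 10 were called. TMM scaling moved the median log2 fold change of all genes from -0.01 to 0.12 (kidney and TLS) and from 0.04 to -0.14 (TLS and lymph node). The B2m change between TLS and lymph node turned to -0.11 with TMM in both edgeR tests and to -0.035 without the libraries rich in ribosomal RNA, and ran from -0.073 to 0.22 with each library left out. Between the lymph node groups, leaving out each library gave -0.41 to 0.28 for H2-K1, -0.41 to 0.12 for H2-D1, -0.064 to 0.59 for Tap1, -0.70 to 0.13 for Tap2, -0.34 to 0.31 for Psmb8 and -0.074 to 0.23 for Psmb9. The cause of these shifts was not tested. Genes with few reads, Nlrc5 above all, are limited by depth: its log2 fold change between kidney and TLS was 1.11 to 3.66 over the alternatives.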

Other observations

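The ratio of heavy to light chain RNA (H2-K1 plus H2-D1 over B2m, each per kb) varied within groups. In TLS it was 0.492 in H6, 0.177 in H20 and 0.231 in H115, and the shares of mitochondrial reads in these libraries were 4.54%, 14.99% and 19.3%. In the antibody-positive lymph nodes it was 0.451 (D10), 0.650 (D11) and 0.243 (L25), with mitochondrial shares of 5.79%, 5.35% and 22.99%. The lymph nodes of proteinuric mice had ratios of 0.399 to 0.551 and mitochondrial shares of 2.55% to 5.29%, and the young lymph node had a ratio of 0.275 and a share of 10.6%. Among the 10 libraries of TLS and lymph node, the low ratios thus lay with the high mitochondrial shares. Among the kidneys, the lowest ratio (0.270, H115) stood beside the highest mitochondrial share (23.9%). H6 had both a higher ratio (0.356) and a higher share (18.5%) than H20 (0.278 and 15.3%). The highest ratio was that of H117 (0.434), with a share of 8.90%. Shares are of all reads, and ribosomal RNA took 55.6% of the reads in the kidney of H117. The share of H117 is therefore not comparable with those of the other kidneys. The part of RNA quality or tissue in these ratios was not tested.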
